A study of Homo sapiens with 4 samples.

Results

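The proteasome subunit genes are the genes whose symbols start with PSMA, PSMB, PSMC, PSMD, PSME or PSMG and end in a number. PSMB8 and PSMB9 were left out by the same rule. Symbols alone decided which genes were taken, though this choice was made with earlier results of these data known. They gave 44 entries of the deposited count table out of 19238 genes. The 44 entries carry 43 symbols, because PSMA2 is listed in 2 entries, and 43 entries reached 10 counts per 1000000 UMIs (CPM) in at least 1 set of cells.

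The cells came from WM239A, a human melanoma line labelled as poorly metastatic, and from 3 sublines grown out of it. Subline 113/6-4L is labelled for lung metastasis, and 131/4-5B1 and 131/4-5B2 for brain metastasis. Each line gave 1 library of droplet-based 3' RNA sequencing, a method that tags captured RNA by cell and by molecule, so that unique molecular identifiers (UMIs) count molecules. The labels name no treatment and no time point. The table held 8173 cells whose names end in 1 of 4 suffixes, and no name or label ties a suffix to a line. The 4 groups of cells are therefore called sets 1 to 4 and no line is compared with another.

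Set 1 held 2121 cells, set 2 held 1779, set 3 held 2140 and set 4 held 2133. Between 71182648 and 71915542 UMIs were summed per set. The median cell of set 2 had 41131 UMIs, against 33152.5 to 33556 in the other sets, and 39 barcodes occurred in more than 1 set. The melanocyte markers MLANA, PMEL, TYR, SOX10, MITF and DCT were all present, with MLANA at 2182 to 2795 CPM. Of 13 markers of immune, endothelial, fibroblast and epithelial cells, 9 had any UMI, and their summed level was 15.4 CPM in set 1, 5.24 in set 2, 1.58 in set 3 and 1.77 in set 4. LUM, a proteoglycan gene of fibroblasts, gave 12.7 CPM of the sum in set 1, while PTPRC, CD14 and COL1A1 lay at or near 0 in every set.

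The proteasome is the protease that degrades proteins tagged with ubiquitin. Its barrel-shaped core particle is built of alpha rings (PSMA genes), which gate the entrance, and beta rings (PSMB genes), which hold the catalytic sites. The regulatory particle caps the core, and consists of a base with a ring of ATPases (PSMC genes) that unfolds substrates and a lid (several PSMD genes) that removes ubiquitin. PSME genes encode other caps, and PSMG genes and a few PSMD genes encode chaperones that assemble the particles and leave them. When proteasome activity falls, the transcription factor NRF1 (gene NFE2L1) raises subunit genes together through antioxidant response elements in their promoters.

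Stretches of member promoters that hold such elements are shown first. Whether these elements bear on the levels described below was not tested. RefSeq promoter sequences, 250 bases before to 50 bases after the gene start in build GRCh38.p14, were matched for 37 of the 43 symbols. The core of the antioxidant response element, searched as TGACNNNGC on both strands, was found in 14 of the 37 promoters (37.8%), against 16.1% of 27305 genes with a promoter of the same length. The lines below give 60 bases around the match for 2 core members and 2 regulatory members, on the gene's strand, with the match in capitals.
PSMA4: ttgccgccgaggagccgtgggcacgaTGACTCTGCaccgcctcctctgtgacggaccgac
PSMB3: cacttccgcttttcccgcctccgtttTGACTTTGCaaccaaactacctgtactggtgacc
PSMD3: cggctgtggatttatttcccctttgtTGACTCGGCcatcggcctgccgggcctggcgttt
PSMD12: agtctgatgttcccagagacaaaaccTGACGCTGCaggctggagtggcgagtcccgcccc
The PSMA4 stretch lies at chr15:78540634-78540693 on the plus strand, with the match starting 126 bases before the gene start. The PSMB3 stretch lies at chr17:38752611-38752670 on the plus strand, with the match 104 bases before the start. The PSMD3 stretch lies at chr17:39980744-39980803 on the plus strand, and its match starts only 37 bases before the start. The PSMD12 stretch lies at chr17:67366709-67366768 on the minus strand, with the match 165 bases before the start.

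Other short motifs were counted in the same windows on both strands. The ZNF143-type site, bound by a zinc finger protein of that name, stood in 5 of 37 member promoters (13.5%) and in 2.15% of all promoters. The 5 were PSMC3, PSMC4, PSMD2, PSMD10 and PSMD11. In the comparison of phases PSMC3, PSMD10 and PSMD11 were higher in G2M than in G1 cells, PSMC4 was lower by a log2 difference of -0.23, and PSMD2 did not pass (adjusted p = 0.0618 by edgeR). The lines below show the site, in capitals, in a base ATPase gene and a lid gene.
PSMC3: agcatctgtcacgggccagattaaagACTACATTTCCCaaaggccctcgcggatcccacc
PSMD11: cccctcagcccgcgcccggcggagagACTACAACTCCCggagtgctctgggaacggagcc
PSMC3 is read from chr11:47426610-47426669 on the minus strand and PSMD11 from chr17:32444368-32444427 on the plus strand. The ETS site CCGGAAG stood in 13 member promoters (35.1%) and in 12.2% of all. CCAAT stood in 18 (48.6%) against 39.7% of all, and GCCATNTTG, of YY1 type, in 3 (8.11%) against 3.56%. The E-box CACGTG stood in 3 (8.11%) against 8.77% of all, TTTGAA, the cell-cycle homology region, in 5 (13.5%) against 18.2%, and TGACGTCA in 0 against 2.25%. The motifs can overlap one another, and a match is only a run of letters, not a binding site.

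Transcripts of the proteasome genes together made up 0.923% of all UMIs in set 1, 0.850% in set 2, 0.790% in set 3 and 0.836% in set 4. Core subunits were the more abundant, with a median over genes of 301 CPM for 14 measured members, while the 17 regulatory members had a median of 128 CPM. The 4 activator genes had a median of 98.6 CPM and the 7 chaperone genes 72.1 CPM. UMI counts of 3' ends do not grow with transcript length, but genes can differ in how well their 3' ends are captured and annotated. All CPM intervals are exact 95% Poisson intervals and cover counting error only.

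PSMA7, an alpha ring subunit, was the most abundant member with 1456, 1533, 1409 and 1527 CPM in sets 1 to 4. It alone gave 25.6% to 29.5% of all core UMIs. PSMB7, the beta ring subunit with trypsin-like activity, followed with 528, 463, 490 and 504 CPM. PSMB3, a beta ring subunit without catalytic activity, had 521, 458, 426 and 465 CPM. These 3 genes held the top of the core in mean CPM, and their levels did not follow the same order of sets, since PSMA7 was highest in set 2 and the other two in set 1.

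The remaining catalytic subunits lay somewhat lower. PSMB5, which carries the chymotrypsin-like site that proteasome inhibitor drugs block, had 387, 366, 323 and 343 CPM. PSMB6, with the caspase-like site, had 451, 370, 342 and 360 CPM. Both were highest in set 1 and lowest in set 3. At the other end of the core stood PSMA6, with 10.5, 8.0, 7.29 and 7.42 CPM, although every alpha ring holds its product. In GENCODE release 29 (GRCh38), PSMA6 shares exon sequence on the same strand with AL121594.1, and such overlap exists for 6 of 43 members (PSMA1, PSMA2, PSMA6, PSMB10, PSMD9 and PSME2). The submitters' notes name the builds hg19 and mm10, so the annotation behind the counts may differ from this release. Whether reads were lost to such neighbours was not tested.

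PSMA2, another alpha ring gene, was split over its 2 entries. The first entry held 0.0419, 0.0695, 0.0560 and 0.0281 CPM and was the only member entry under 10 CPM in all sets. The second held 288, 230, 221 and 189 CPM. The table does not say which locus each entry stands for, and both were kept as deposited.

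Among the members of the regulatory particle, the lid subunit PSMD8 led with 291, 298, 339 and 344 CPM. SHFM1, a lid subunit whose symbol keeps it out of the members, lay higher with 666, 803, 534 and 551 CPM. PSMD4, the ubiquitin receptor of the base, had 199, 201, 188 and 201 CPM. PSMD14, the lid enzyme that cuts ubiquitin chains from substrates, had 217, 184, 176 and 188 CPM. PSMD4 was nearly level over the sets, whereas PSMD8 was highest in sets 3 and 4 and PSMD14 in set 1. The range of the 17 members was from 56.4 CPM for the lid gene PSMD12 to 318 CPM for PSMD8, as means of the sets.

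The caps other than the regulatory particle were PSME1 and PSME2, which form the interferon-inducible PA28 ring, PSME3, which forms its nuclear relative, and PSME4, the single-chain activator PA200. PSME1 had 133, 125, 127 and 130 CPM and PSME2 had 204, 201, 172 and 184 CPM. PSME3 had 74.9, 66.6, 62.5 and 69.2 CPM. PSME4 was weakly detected at 15.7, 14.2, 15.2 and 16.2 CPM, with no pair of sets more than 1.13-fold apart on the log2(CPM + 1) scale.

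**Figure D1:**
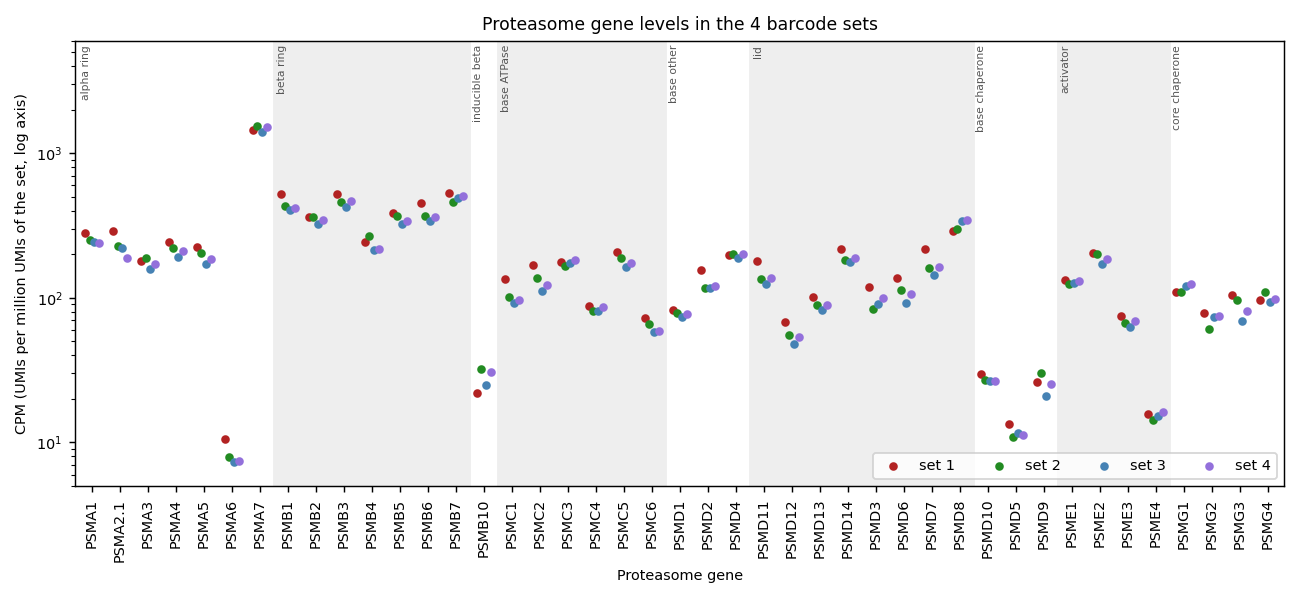
Level of each proteasome gene entry that reached 10 CPM (horizontal axis) in CPM of its set (vertical log axis), with 1 point per barcode set and genes grouped by particle. PSMA7 stands at 1409 to 1533 CPM and PSMA6 near or under 10 CPM, and the 4 points of most genes lie close together.

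Levels differed little between the sets. On the log2(CPM + 1) scale, the highest and the lowest set were at least 1.5-fold apart for 2 of 43 members, PSMA2 (second entry) and the base ATPase gene PSMC2, against 17.3% of 7421 genes at that level (10 CPM or more in at least 1 set). A gap of 2-fold or more was reached by 0 members and by 5.85% of all genes. The median gap was 1.23-fold over members and 1.26-fold over all genes. Among genes with a mean of at least 50 CPM it was nearly the same, 1.23-fold over 37 members and 1.24-fold over all 2510 genes. In G1 cells alone 6 of 43 members spanned 1.5-fold, against 22.7% of genes. With 1 library per line there is no replicate and no test between sets, and a batch, a culture and a line cannot be told apart.

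PSMC2 had 169, 137, 112 and 122 CPM and reached a 1.5-fold gap between sets 1 and 3. PSMD7, a lid subunit that pairs with PSMD14, had 217, 162, 145 and 165 CPM and stayed just under the limit on the same scale. PSMG3, a chaperone of core assembly, had 104, 97.4, 69.7 and 80.6 CPM, with a gap of 1.49-fold. In each of these genes set 1 was highest and set 3 lowest.

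That order was frequent in the family. Set 1 was the highest set for 31 of 43 members and for 44.9% of all genes, and set 3 was the lowest for 30 members and for 31.5% of all genes. On the log2(CPM + 1) scale, set 1 lay above the median of the other sets by a median of 0.18 over members and 0.06 over all genes. With TMM scaling the same medians were 0.11 and -0.01, and set 1 was highest for 27 members and 36.1% of genes. A level in set 1 at least 1.2-fold above the median of the others was found for 15 of 43 members, against 25.0% of all genes, and a level 1.2-fold below for 1 member, against 16.1%. With TMM scaling, 10 members lay that far above (18.1% of all genes) and 2 that far below (21.9%). In G1 cells alone, 18 members lay above (28.8%) and 1 below (16.7%).

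Set 1 also had the lowest mitochondrial share, a median of 5.41% of a cell's UMIs, against 6.73%, 7.12% and 6.83% in sets 2 to 4. It held 78 cells over 10%, against 177, 200 and 180. With totals that leave out mitochondrial and ribosomal protein genes, set 1 was highest for 28 members and 40.0% of genes, and the medians above the other sets were 0.14 over members and 0.02 over all genes.

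In the remaining sets such departures were few. Set 2 had 3 members at least 1.2-fold above the median of the others (10.1% of all genes) and 1 below (11.6%). Set 3 had 0 above (7.49%) and 5 below (8.87%). Set 4 had 1 above (6.52%) and 2 below (6.60%).

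Summed over the members of each particle, core transcripts reached 5697 CPM in set 1, 5353 in set 2, 4927 in set 3 and 5184 in set 4. Regulatory particle transcripts reached 2619, 2258, 2158 and 2303 CPM. Set 1 over the median of the others was 1.10-fold for the core and 1.16-fold for the regulatory particle, and 1.04-fold and 1.11-fold with TMM scaling. Within the regulatory particle, the ATPases summed to 849, 740, 680 and 721 CPM and the lid to 1334, 1122, 1100 and 1182 CPM. Both were highest in set 1 and lowest in set 3.

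Regulatory over core transcripts gave a ratio of 0.460 in set 1 (95% interval 0.457 to 0.462), 0.422 in set 2 (0.419 to 0.424), 0.438 in set 3 (0.435 to 0.441) and 0.444 in set 4 (0.442 to 0.447). These intervals are exact conditional binomial ones, cover counting error only and do not overlap. The order of sets depended on which genes were summed. Without PSMA7 the ratio was 0.618, 0.591, 0.614 and 0.630, so that set 4 and not set 1 was highest, while set 2 remained lowest. The sums hold members only, so 2 regulatory particle subunits with other symbols are left out. These are SHFM1, with 666, 803, 534 and 551 CPM in sets 1 to 4, and ADRM1, with 230, 231, 200 and 222 CPM. A ratio that includes them was not computed, and the order of sets may differ with them.

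A few members departed from the rest of the family. Their difference from the median of the other sets was set against the family's median difference in that set, on the log2(CPM + 1) scale, and those at least 0.26 away (1.2-fold) are described. PSMB10, the inducible beta subunit that replaces PSMB7 in immunoproteasomes, had 22.1, 32.0, 25.0 and 30.6 CPM. It was lowest in set 1, where it lay 0.64 under the family, and 0.31 and 0.30 above the family in sets 2 and 4. The other inducible beta subunits, which are not members, were also lowest in set 1, with 62.1, 115, 105 and 106 CPM for PSMB8 and 29.6, 59.7, 40.9 and 46.0 CPM for PSMB9.

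PSMD8 lay 0.41 under the family in set 1 and 0.31 above it in set 3, with the values given with the regulatory particle. PSMG1, which pairs with PSMG2 as a chaperone of the alpha ring, had 110, 110, 120 and 125 CPM and lay 0.31 under the family in set 1. PSMG2 had 79.1, 60.8, 74.3 and 74.4 CPM and was 0.32 under the family in set 2 alone. The partners of this chaperone pair thus departed in different sets.

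PSMG3 lay 0.36 under the family in set 3. PSMG3-AS1, annotated on the opposite strand with exon overlap, had 18.1, 12.4, 7.70 and 8.47 CPM, in the same order of sets as PSMG3, and its part in the PSMG3 counts was not tested. PSMG4, the partner of PSMG3, had 96.5, 110, 93.3 and 98.3 CPM and did not depart. PSMD3, a lid subunit, had 119, 84.3, 90.9 and 99.4 CPM and was 0.27 under the family in set 2. The second PSMA2 entry was 0.27 under the family in set 4.

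Departures upward in set 1 were those of PSMC2 and PSMC1, 0.28 each, and PSMA6, 0.27. PSMC1, another base ATPase gene, had 134, 102, 91.9 and 97.0 CPM. Just short of the limit stood PSMA7 and PSMG3, each 0.25 under the family, in sets 1 and 4, and PSMB4, a beta ring gene, 0.25 above it in set 2.

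**Figure D2:**
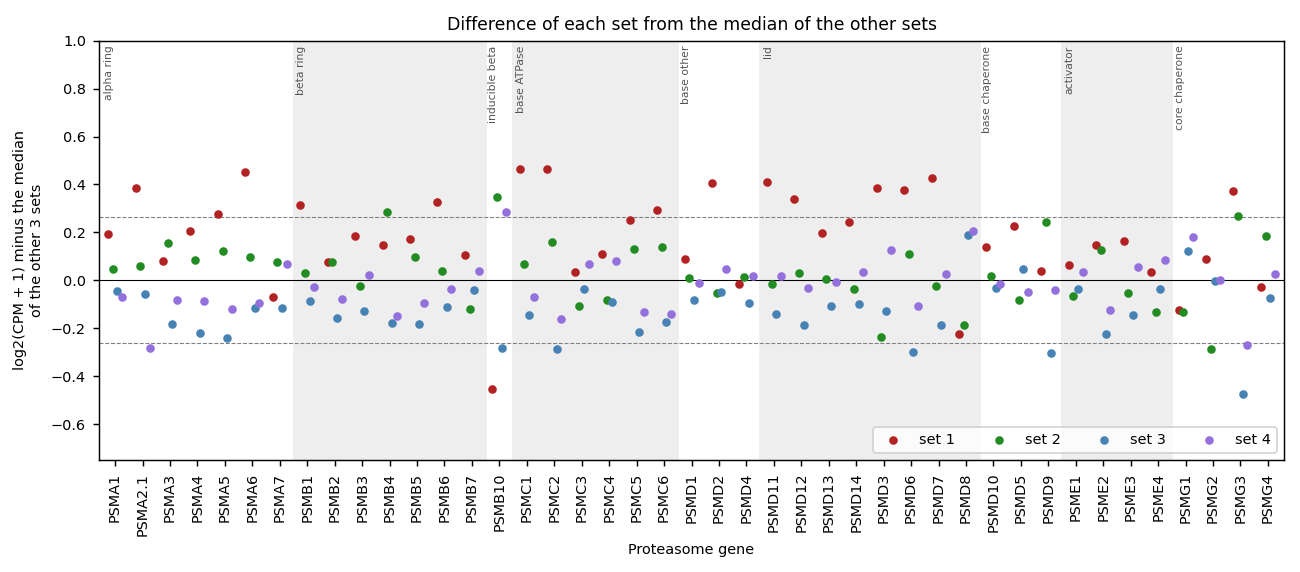
Difference of each proteasome gene in a set from the median of the other sets on the log2(CPM + 1) scale (vertical axis), with genes along the horizontal axis and 1 point per set. Most points of set 1 lie above 0, with PSMB10, PSMD8 and PSMG1 below, and most points of set 3 lie below 0.

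Cells were next compared by phase of the cell cycle, the only comparison here with several libraries on each side. Each cell was called G1, S or G2M from the scores of 40 S genes and 54 G2M genes, 0 of which are members, and UMIs were summed per set and phase into 12 sums. The phases were tested within sets with edgeR's quasi-likelihood test, set as a block and Benjamini-Hochberg adjustment over 14253 genes (n = 4 libraries). A phase called from a score is a range of cells, not a type, and 1949 cells (23.8%) lay within 0.05 of a limit.

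Between G2M and G1 cells, 18 of 43 members were higher at adjusted p under 0.05, where 24.0% of all genes were, and 10 were lower, where 25.5% were. The median log2 difference was 0.05 over members and -0.03 over all genes. The regulatory particle had 10 of 17 members higher and 3 lower, with a median of 0.11. The core had 3 of 14 higher and 4 lower, with a median of -0.03. Of 7 chaperone genes 4 were higher and 1 was lower, and of 4 activator genes 1 was higher and 1 lower.

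The largest rise was that of PSMG3. It had 113, 103, 76.7 and 85.5 CPM in G2M cells of sets 1 to 4, against 85.4, 76.5, 50.7 and 59.0 CPM in G1 cells. The G2M value was above the G1 value in all 4 sets, with a log2 difference of 0.47 ± 0.04 (SE, edgeR, adjusted p = 3.28e-14). PSMG2 had 89.7, 69.0, 85.3 and 80.6 CPM in G2M cells, against 68.9, 47.1, 62.1 and 63.7 CPM in G1 cells. Its G2M values were higher in each set, by 0.42 ± 0.04 on the log2 scale (SE, edgeR, adjusted p = 6.07e-12).

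The lid pair that removes ubiquitin rose together. PSMD14 had 244, 198, 189 and 195 CPM in G2M cells, against 184, 157, 151 and 153 CPM in G1 cells, a log2 difference of 0.34 ± 0.03 (SE, edgeR, adjusted p = 9.15e-14). PSMD7 had 250, 183, 163 and 182 CPM in G2M cells, against 197, 141, 125 and 142 CPM in G1 cells, a difference of 0.35 ± 0.03 (SE, edgeR, adjusted p = 6.78e-14). PSMD11, a lid scaffold subunit, had 195, 146, 137 and 147 CPM in G2M cells, against 165, 123, 113 and 111 CPM in G1 cells. All 3 genes were higher in G2M in every set. The lid genes PSMD12 and PSMD6 rose by 0.17 and 0.11.

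PSMD1, the large scaffold subunit of the base, had 96.2, 88.8, 78.4 and 85.0 CPM in G2M cells, against 73.7, 67.7, 65.4 and 65.5 CPM in G1 cells (log2 difference 0.34, adjusted p = 2.39e-10 by edgeR). Of the 6 ATPases, PSMC1, PSMC2, PSMC3 and PSMC6 rose, by 0.08 to 0.19 on the log2 scale, and PSMC5 did not pass. PSMC3 had 189, 175, 187 and 194 CPM in G2M cells, against 169, 153, 162 and 163 CPM in G1 cells. PSMC4 fell, with 79.6, 75.8, 74.8 and 80.8 CPM in G2M cells, against 92.2, 87.7, 88.9 and 93.5 CPM in G1 cells (log2 difference -0.23, adjusted p = 2.65e-07 by edgeR). The 6 ATPases form 1 ring with 1 copy each, and their transcripts thus differed in direction.

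In the core, the alpha ring genes PSMA3 and PSMA4 rose. PSMA3 had 190, 197, 164 and 178 CPM in G2M cells, against 166, 170, 137 and 140 CPM in G1 cells (log2 difference 0.24, adjusted p = 1.22e-08 by edgeR). PSMA4 had 267, 232, 195 and 217 CPM in G2M cells, against 226, 201, 185 and 180 CPM in G1 cells. Catalytic subunits went the other way or did not pass. PSMB6 had 422, 337, 313 and 332 CPM in G2M cells, against 480, 381, 364 and 395 CPM in G1 cells, lower in all 4 sets by a log2 difference of -0.22 ± 0.03 (SE, edgeR, adjusted p = 1.43e-09). PSMB7 differed by -0.11 (adjusted p = 0.000363 by edgeR), and PSMB5 had 392, 373, 320 and 337 CPM in G2M cells, against 388, 355, 325 and 337 CPM in G1 cells.

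Further genes that fell were PSMG4, PSME1, PSMD4, PSMB10, PSMD8, PSMB1 and PSMA7. PSMG4 had 86.5, 101, 81.7 and 88.0 CPM in G2M cells, against 98.3, 114, 101 and 108 CPM in G1 cells, so that it fell while its partner PSMG3 rose. PSME1 differed by -0.16 (adjusted p = 1.66e-05), while PSME3, which is known for acting in the nucleus, rose by 0.25 (adjusted p = 1.31e-06). PSME2 and PSME4 did not pass the test. PSMB2, PSMC2, PSMC6, PSMD9, PSMB1 and PSMA7 had adjusted p between 0.0122 and 0.0473 with edgeR, and their calls were lost on leaving out single sets. Without set 1, the adjusted p (edgeR) of PSMB2, PSMC2, PSMC6, PSMD9 and PSMA7 was 0.207, 0.0866, 0.0508, 0.0940 and 0.0976. PSMB1 had an adjusted p of 0.102 (edgeR) without set 3. The calls of PSMB2 and PSMC2 were lost without set 1, 2 or 4, and that of PSMD9 whichever set was left out. That of PSMA7 was lost without set 1 or 4, that of PSMB1 without set 3 or 4, and that of PSMC6 without set 1.

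S cells, set against G1 cells, had 14 of 43 members higher, where 21.3% of all genes were, and 8 lower, where 21.1% were. PSMG3 had 115, 105, 76.3 and 84.5 CPM in S cells, close to its level in G2M. PSMG1 had 97.0, 92.8, 104 and 108 CPM in G1 cells, 128, 123, 134 and 140 CPM in S cells and 97.4, 105, 112 and 113 CPM in G2M cells. It was highest in S in every set, with a log2 difference of 0.36 ± 0.03 from G1 (SE, edgeR, adjusted p = 2.07e-12), and its G2M difference did not pass (adjusted p = 0.0535, and 0.0229 without set 1). PSMD10, the oncoprotein gankyrin and a chaperone of the base, had 29.7, 29.2, 24.8 and 24.1 CPM in G1 cells, 25.2, 24.6, 23.8 and 24.7 CPM in S cells and 37.1, 29.0, 32.5 and 31.1 CPM in G2M cells. S was below G1 in 3 of 4 sets. Its rise in G2M was 0.24 on the log2 scale (adjusted p = 0.00052 by edgeR), in 3 of 4 sets. Its lower level in S (log2 difference -0.16, adjusted p = 0.0197 by edgeR) was no longer called without set 1 or without set 2. Other calls in S were lost on leaving out single sets as well. That of PSMA4 was lost without set 4, that of PSMA6 without set 1 or 2, and that of PSMC3 without set 2 or 4. Those of PSMC2 and PSME1 were each lost without set 1, 3 or 4, that of PSMB4 without set 2, 3 or 4, and that of PSMD6 without set 1, 2 or 3.

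**Figure D3:**
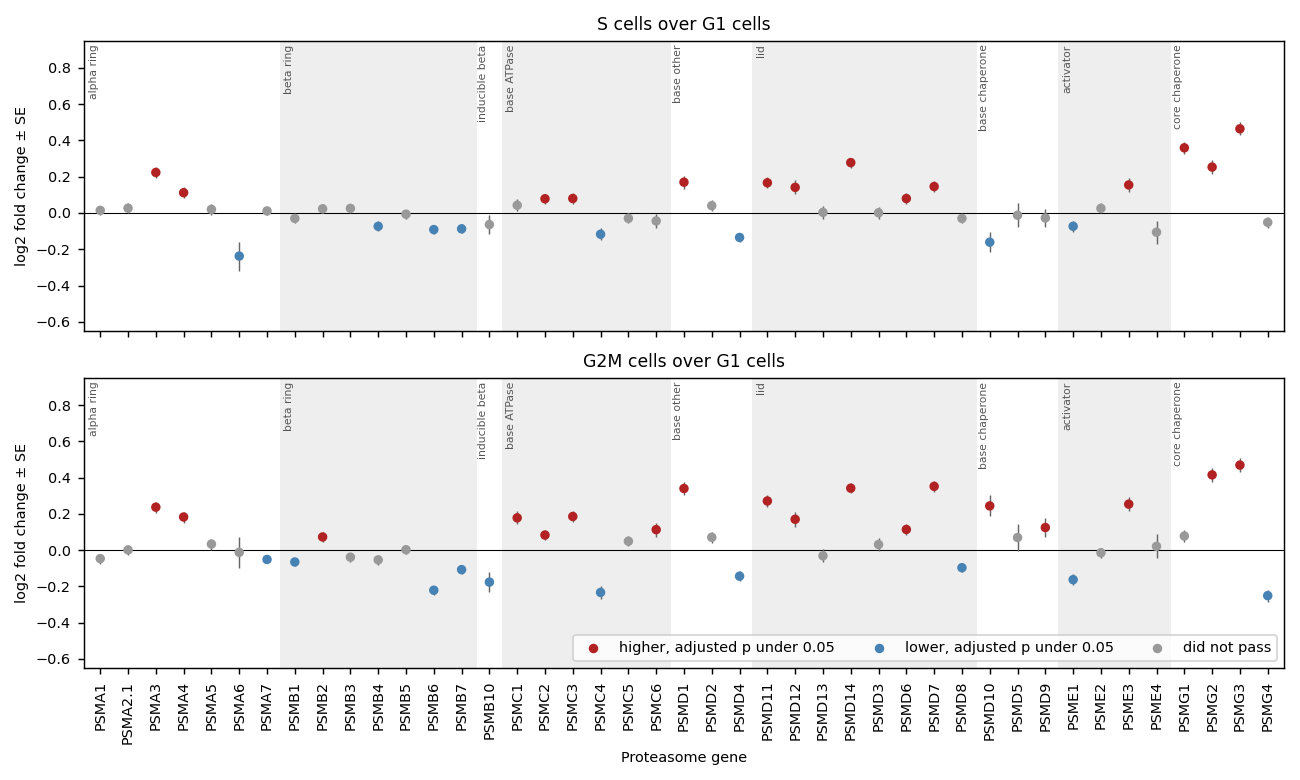
Log2 difference of each proteasome gene between S and G1 cells and between G2M and G1 cells (vertical axis, with standard errors from edgeR), over genes grouped by particle. PSMG3, PSMG2, PSMD7, PSMD14 and PSMD1 stand highest in G2M, PSMG4, PSMC4 and PSMB6 lowest, and PSMG1 passes the test in S and not in G2M.

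The particles' sums were compared between the same phases within each set, as plain CPM without TMM scaling and without edgeR. Core transcripts were 5625, 5258, 4862 and 5056 CPM in G2M cells of sets 1 to 4, against 5739, 5244, 4923 and 5167 CPM in G1 cells, lower in 3 of 4 sets. Regulatory particle transcripts were 2730, 2318, 2235 and 2348 CPM in G2M cells, against 2521, 2168, 2078 and 2166 CPM in G1 cells, higher in 4 of 4 sets. Their ratio was 0.485, 0.441, 0.460 and 0.464 in G2M cells, against 0.439, 0.413, 0.422 and 0.419 in G1 cells. The difference was 0.0391 ± 0.00861 (SD, n = 4), and an exact two-sided permutation test of signs gave p = 0.125, the smallest that 4 pairs allow. Without PSMA7 it was 0.0511 ± 0.0119 (SD, n = 4), again above 0 in 4 of 4 sets.

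G2M cells held more UMIs, with medians of 35044, 43741, 36598 and 35352, against 30435, 37996, 30186.5 and 30516.5 in G1 cells. Their median mitochondrial share was 5.07%, 6.50%, 6.84% and 6.67%, against 5.55%, 7.44%, 7.33% and 7.27% in G1 cells. When phases were called on cells thinned to 10000 UMIs, PSMD9 alone of the 28 members called between G2M and G1 lost its call. Without cells over 10% mitochondrial UMIs, the calls of PSMB2, PSMC2 and PSMD9 were lost.

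**Figure D4:**
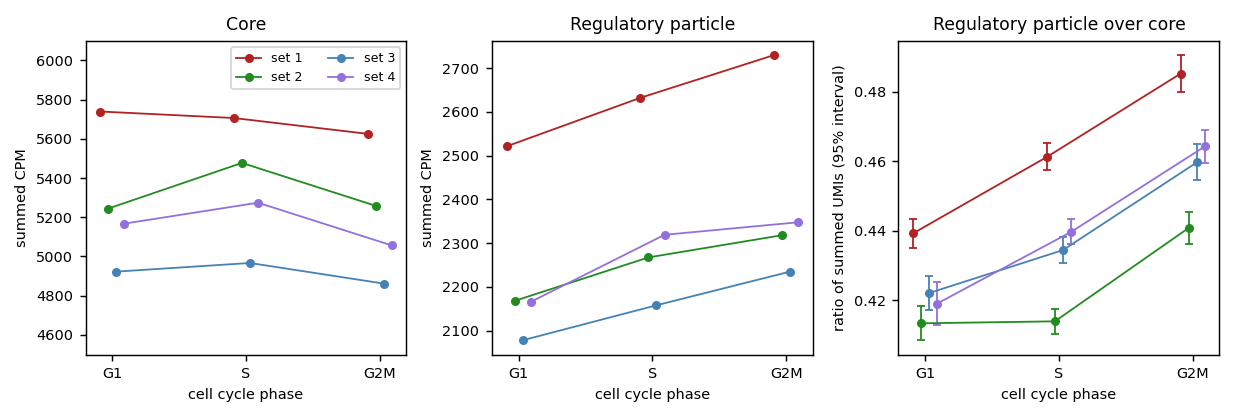
Summed core and regulatory particle CPM and their ratio (vertical axes, which do not start at 0) in G1, S and G2M cells (horizontal axis), with 1 line per set. The regulatory sum and the ratio are higher in G2M than in G1 in all 4 sets, and the core sum is lower in 3 of them.

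Core and regulatory transcripts varied together from cell to cell. For each cell the summed UMIs of a particle were divided by the cell's total, multiplied by 10000 and put on a natural log scale after adding 1. Pearson's r between core and regulatory particle was 0.740 over 2121 cells of set 1, 0.659 over 1779 of set 2, 0.697 over 2140 of set 3 and 0.726 over 2133 of set 4. These values are descriptions, since the cells of a set share a library and both sums share the cell's total. The median cell had 165 to 218 core UMIs and 70 to 91 regulatory UMIs.

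Such a correlation depends on depth and on what the totals hold. With all cells thinned to 10000 UMIs, r was 0.563, 0.440, 0.511 and 0.542. With totals that left out mitochondrial and ribosomal protein genes, it was 0.659, 0.532, 0.599 and 0.630. After removal of the Poisson part, the coefficient of variation between cells was 18.3% to 20.0% for the core and 21.2% to 23.1% for the regulatory particle, and the correlation of the sums was 0.764 to 0.858.

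**Figure D5:**
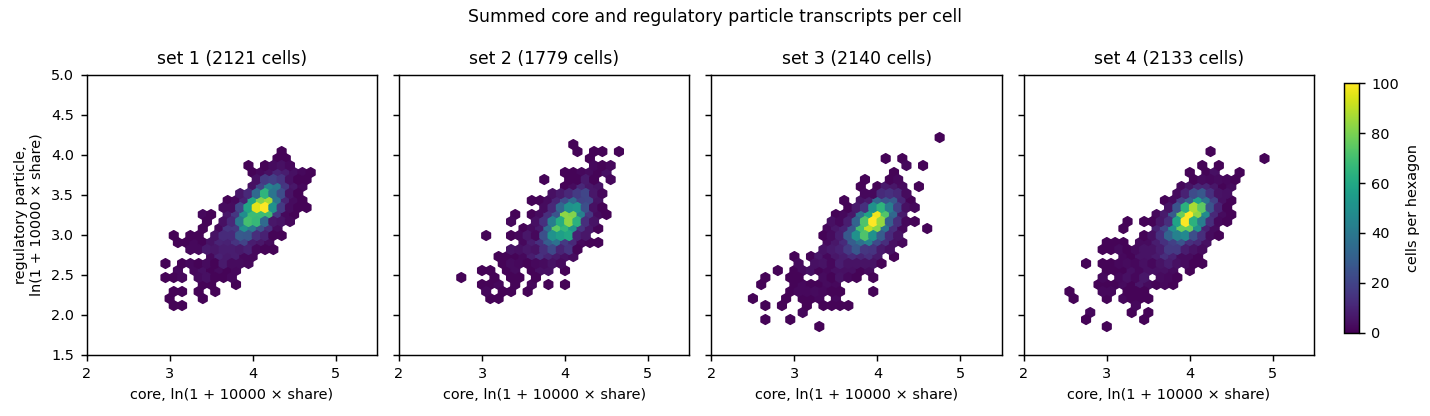
Summed regulatory particle (vertical axis) against summed core (horizontal axis) per cell, both as the natural log of 1 plus 10000 times the share of the cell's UMIs, in 1 panel per set, with colour for the number of cells in a hexagon. The cells form 1 elongated cloud in each set, with Pearson's r of 0.659 to 0.740, and a thin tail of cells low in both.

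The tail was not measured as a group of its own. Over all cells of a set, the summed members correlated with the mitochondrial share at -0.36 to -0.49 and with the log of the cell's UMIs at -0.10 to 0.01. Core sums correlated with the summed ribosomal protein genes at -0.54 to -0.43 and regulatory sums at -0.57 to -0.50. The correlation of both particles with totals that leave these genes out is given above, and without cells over 10% mitochondrial UMIs it was 0.715, 0.615, 0.631 and 0.671 in sets 1 to 4.

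The CCT chaperonin, an unrelated complex that folds actin and tubulin, gave a yardstick. Its summed transcripts correlated with the core at 0.620 to 0.688 and with the regulatory particle at 0.653 to 0.708 over the sets. In set 1, for example, the core had r of 0.740 with the regulatory particle and 0.634 with CCT, and in set 2 the values were 0.659 and 0.626. The regulatory particle had r of 0.693, 0.660, 0.653 and 0.708 with CCT in sets 1 to 4, beside 0.740, 0.659, 0.697 and 0.726 with the core. After removal of the Poisson part these were 0.830, 0.819, 0.834 and 0.872 with CCT and 0.858, 0.764, 0.836 and 0.852 with the core, so that the value with CCT was the higher one in sets 2 and 4. The core with CCT had 0.702, 0.728, 0.720 and 0.774 after that removal. None of these differences was tested.

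Members were not alike in how closely they followed the others. For the 37 entries with a mean of at least 50 CPM, the correlation of a gene with the sum of the remaining members, averaged over sets, had a median of 0.337, against 0.086 for other genes of that level. Of 2510 such genes, 16 of the 37 members were in the top 5%, and 35 lay above the median of the other genes. The highest were PSMA7 at 0.596, PSMB6 at 0.548 and PSMB3 at 0.546, all core genes. The lowest were PSMG3 at 0.016, PSMG4 at 0.029 and PSMG2 at 0.119, all chaperones that are not part of the finished particle, while PSMG1 reached 0.275. Abundant genes have less counting noise and so higher values, and PSMG4 with a mean of 99.5 CPM stood far below the base ATPase gene PSMC4 with 84.3 CPM and r of 0.298.

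PSMB5 was low for its level, with r of 0.279 at a mean of 355 CPM, next to PSMB2, a beta ring gene of 348 CPM with r of 0.503. PSMB4 had 0.235 at 235 CPM and PSMA4 had 0.523 at 216 CPM. PSMB5 also varied least between cells, with a coefficient of variation of 17.5% after removal of Poisson noise, and PSMD1 most, with 40.6%. PSMA4 had 40.3%. The median over members was 27.1% and over 2461 other genes of at least 50 CPM 26.5%. Of the 8 CCT genes, which are not members, CCT5, CCT8 and CCT6A had the highest r with the summed members, 0.512, 0.492 and 0.485. They were picked for high values and the other CCT genes are not given. They can therefore not be set against the median of all members, 0.337.

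By pair of genes, core with core had a median r of 0.226 (78 pairs), regulatory with regulatory 0.139 (136 pairs) and core with regulatory 0.152 (221 pairs). A member paired with another gene of at least 50 CPM had a median of 0.034. Regulatory genes were less abundant, so their pairs hold more counting noise. Within both kinds of particle the range was wide, from 0.029 to 0.425 for core pairs and from 0.045 to 0.261 for regulatory pairs.

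The non-members whose levels followed the summed members most closely were NPM1 (r = 0.589), EIF4A1 (0.545), TUBA1B (0.536), HSPD1 (0.534) and NQO1 (0.533), and then PFN1, ENO1, LDHB, HSP90AB1 and POMP (0.526 to 0.513). NPM1 encodes nucleophosmin, EIF4A1 a translation initiation helicase, TUBA1B an alpha tubulin and HSPD1 the mitochondrial chaperonin. All 10 were abundant, with means from 827 CPM for POMP to 3123 CPM for NPM1. POMP, the proteasome maturation protein that helps beta rings assemble, was the one proteasome protein among them, with 697, 1033, 762 and 815 CPM. Set 1 was its lowest set, unlike most members.

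Other proteins of the pathway were counted from lists of genes. Of 10 other proteasome proteins, 4 were higher and 1 was lower in G2M than in G1 cells, where 24.0% of all genes were higher and 25.5% lower. Those higher were UCHL5 and USP14, deubiquitinases of the regulatory particle, ADRM1, the ubiquitin receptor that holds UCHL5, and AKIRIN2, which brings proteasomes into the nucleus. Their log2 differences were 0.49, 0.38, 0.32 and 0.79, and the inhibitor PSMF1 differed by -0.14 (adjusted p = 0.00239 by edgeR). SHFM1, the small lid subunit also called DSS1, had 666, 803, 534 and 551 CPM and did not pass.

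Of 15 genes of ubiquitin and its shuttle proteins, 4 were higher and 6 lower in G2M than in G1, beside 24.0% and 25.5% of all genes. The polyubiquitin gene UBB fell, with a log2 difference of -0.37. Among 13 genes of NRF1 and NRF2 control, 3 were higher and 4 lower, beside the same 24.0% and 25.5%. NFE2L1 itself, with 32.1, 25.7, 27.2 and 28.0 CPM in sets 1 to 4, did not pass in G2M. NQO1, a classical NRF2 target, had 1783, 1070, 878 and 907 CPM; its highest and lowest sets were 2.03-fold apart. NFE2L2, which encodes NRF2, had 142, 94.5, 104 and 97.9 CPM and was also highest in set 1. NFE2L3 spanned 1.89-fold and was highest in set 1, whereas MAFF spanned 1.52-fold and was highest in set 3. HMOX1 and GCLM had 13.6 and 14.4 CPM in set 1, close to 12.7 and 14.2 CPM in set 2. Of the 12 genes of this list that reached 10 CPM, 9 were highest in set 1, beside 44.9% of all genes. Whether NRF2 was more active in set 1 was not tested. Of the 8 CCT genes, 5 were higher and 2 lower in G2M, beside 24.0% and 25.5% of all genes. Of those 8, 7 were highest in set 1, the set in which most proteasome members and 44.9% of all genes were highest.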

How the data were processed

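Single-cell 3' libraries were made with Chromium version 2 chemistry, per the labels' protocols. The authors deposited UMI counts per gene and cell, and a natural log table of the same cells that was not used here. Cell Ranger 3.0.0, Seurat 3.0 and the builds hg19 and mm10 are named in the submitters' processing notes, without their roles. Cells had 3001 to 6999 detected genes. No cell was removed here, doublets included.

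Counts were summed per set, or per set and phase (11857406 to 35668568 UMIs each). CPM was taken over all UMIs of a sum, and log2 values used a pseudocount of 1 CPM. Phases were called with scanpy 1.11.5. Phases were compared with edgeR 4.0.16 (TMM scaling, filterByExpr, robust quasi-likelihood fit, set as block), with DESeq2 1.42.0 as an alternative. A script was tested on simulated data before use. The 4 libraries are a line and 3 sublines grown out of it, with no repeat. The p-values rest on the spread of phase differences between these related lines. The fit also draws each gene's variance toward the trend over all genes tested, so a gene's own spread is not used alone. Within a sum, cells are not replicates.

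The sets are unlabelled samples, described with no test between them. Described by name were the members highest in level, widest in span, departing by 1.2-fold, at the ends of the correlation order or of smallest p by phase, the catalytic, cap and PSMG genes, and the 10 non-members of highest correlation. Other list genes were chosen after their values were seen. Members, lists and this rule were chosen with earlier results of these data known.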

Additional observations from a re-analysis of the deposited data

How the results depend on the processing

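Phases were compared within sets, with the set as the block, and the labels give no replicate numbers. Without the replicate block, 4 members were higher and 2 lower in G2M than in G1, and 1 higher and 0 lower in S than in G1; over all genes 1410 and 830, and 1059 and 339, were called. DESeq2 left 4 members lower in S and 1876 genes lower in S. Phases called on cells thinned to 10000 UMIs left 5 members lower in S. Leaving out 1 set at a time gave 15 to 17 members higher and 8 to 10 lower in G2M, and 11 to 12 higher and 5 to 6 lower in S; over all genes the ranges were 3031 to 3162 and 3031 to 3347 in G2M, and 2599 to 2745 and 2341 to 2670 in S. RLE size factors and no filter on low counts kept all of these counts within 1.5 times. No member's phase difference changed sign where it was called. Members spanning 1.5-fold numbered 1 with a pseudocount of 10 CPM (8.88% of all genes did), 1 with TMM scaling (17.3%), 0 with totals without mitochondrial and ribosomal protein genes (18.4%) and 6 in G1 cells alone (22.7%). With the pseudocount of 10 CPM, members 1.2-fold below the other sets numbered 0 in set 2 (6.29% of all genes), 3 in set 3 (5.28%) and 1 in set 4 (3.44%), and 0 were above in set 4 (3.37%). With a minimum of 50 CPM, 0 were below in set 1 (14.2%), 3 below in set 3 (9.75%) and 0 above in set 4 (5.46%). TMM scaling gave 2 below in set 1 (21.9%) and 1 below in set 4 (5.54%), and the reduced totals gave 2 below in set 1 (19.9%) and 3 below in set 3 (7.34%). Set 1 over the median of the others was, for the core, 1.04 with TMM, 1.07 with reduced totals, 1.11 in G1 cells, 1.16 without PSMA7 and 1.08 without the second PSMA2 entry, and for the regulatory particle 1.11 with TMM, 1.13 with reduced totals and 1.14 as a mean over cells. The ratio of regulatory to core transcripts in sets 1 to 4 was 0.439, 0.413, 0.422 and 0.419 in G1 cells, 0.618, 0.591, 0.614 and 0.630 without PSMA7, and 0.484, 0.441, 0.459 and 0.461 without the second PSMA2 entry; as a mean over cells it was 0.455 in set 1, 0.433 in set 3 and 0.440 in set 4. The last 2 omissions and the reduced totals for correlations were chosen after seeing the data. The correlation of core and regulatory particle was 0.563, 0.440, 0.511 and 0.542 after thinning, 0.686, 0.601, 0.604 and 0.628 as Spearman's rho, 0.715, 0.615, 0.631 and 0.671 without cells over 10% mitochondrial UMIs, 0.659, 0.532, 0.599 and 0.630 with reduced totals, and 0.698, 0.718 and 0.786 in G1 cells of sets 2, 3 and 4. The cause of these changes was not tested. Depth limits the weakest members, such as PSMA6 and PSMD5, whose sums hold about 10 CPM.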
